A study of Mus musculus with 2 samples.

Results

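The enzymes described here carry glucose through glycolysis, the pentose phosphate pathway, the pyruvate dehydrogenase complex and the citrate cycle, with the enzymes of lactate formation, gluconeogenesis and pyruvate carboxylation. They were chosen by name from a list of 46 genes. A gene was kept if a probe of the array carried its symbol and no other, which held for 35 of the 46, out of 13697 genes named on the array in all. Each of the 35 had 1 probe. Gpi1, Pfkl, Eno1, Pkm, Dlat, Aco1, Idh3b, Suclg2, G6pdx, Pgd and Taldo1 had no such probe and were not analysed here, so the pentose phosphate pathway was left with Tkt alone.

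Gene expression was measured in mouse embryoid bodies, aggregates formed by differentiating embryonic stem (ES) cells. One array held RNA of bodies grown from Elongin A-/- ES cells and the other RNA of bodies grown from Elongin A+/+ ES cells. Both cultures received 2 µM retinoic acid and were collected at day 4, in a medium with serum and N2 supplement. Elongin A is a subunit of the Elongin complex, which stimulates elongation by RNA polymerase II. Whether each array held 1 culture or a pool, which part of the gene is missing and how many ES cell clones were used are details not given in the sources here.

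In glycolysis a preparatory phase spends ATP to split glucose into triose phosphates, and a payoff phase turns these into pyruvate with a gain of ATP and NADH. Pyruvate is reduced to lactate in the cytosol or enters mitochondria, where the pyruvate dehydrogenase complex makes acetyl-CoA for the citrate cycle. ES cells are known for a strongly glycolytic metabolism, and differentiation is usually accompanied by a shift towards oxidative metabolism. Several steps have isoenzymes from different genes, whose use differs between tissues such as muscle, brain and liver.

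With 1 array per genotype no difference could be tested, no p-value is given, and the genotype cannot be told apart from its cell line, culture or array. Precision is limited by the number of arrays. The deposited intensities are linear, with medians of 1.03 on the Elongin A-/- array and 1.02 on the Elongin A+/+ array. They were quantile normalised, and the median of 1.03 served as the floor under which a value was not read. Genes that exceeded this floor in 1 genotype or both are called measured, 9568 in all. Log2 differences are Elongin A-/- minus Elongin A+/+, and a difference with 1 array under the floor is a bound. An error can be read only where several probes stand for 1 gene, and their log2 differences had an SD of 0.43 over 224 genes. It is a spread between probes, was pooled over dim and bright genes above the floor, and says nothing of the spread between cultures. The probe of Elongin A itself (Eloa) read 3.57 in Elongin A-/- and 3.87 in Elongin A+/+ bodies. Its place relative to the missing part of the gene is not given, so it checks nothing about the labels.

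Most of the enzyme genes had similar intensities in both genotypes, and a few stood far apart. Of the 34 measured enzyme genes, 29 lay within 2-fold. At least 2-fold higher in Elongin A-/- bodies were 2, Eno3 and Aldoc, against 6.76% of all measured genes. At least 2-fold lower were 3, Pck1, Mdh2 and Tpi1, against 5.97% of all measured genes. As shares of the 34 these counts are 5.88% and 8.82%, both near the shares over all genes. At 1.5-fold the counts were 8 higher and 6 lower, against 15.8% and 14.8% of all measured genes. The median difference of the 34 was 0.10 on the log2 scale, against -0.02 over all measured genes. Of the 35 named genes, 31 were above the floor on both arrays, Eno2, Fbp1 and Pck1 on 1 array only, and Fbp2 on neither. Over the 31 the median was 0.06.

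**Figure D1:**
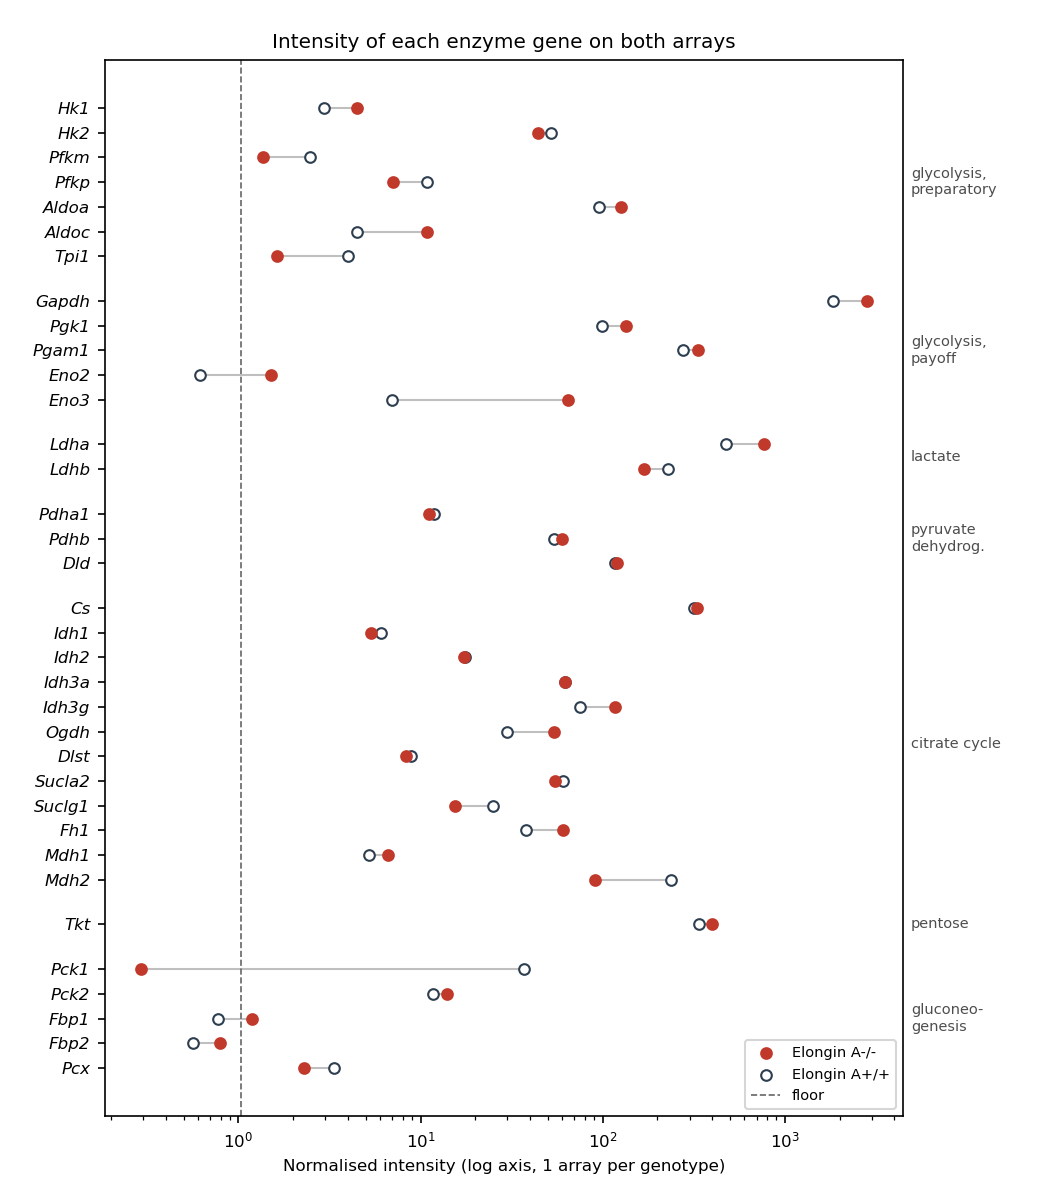
Normalised intensity (log axis) of the 35 enzyme genes on the Elongin A-/- array (filled) and the Elongin A+/+ array (open), with the floor as a dashed line. Most pairs of points lie close together. Eno3 at 64.8 and 6.93 and Pck1 at 0.29 and 37.2 are the most widely separated. Intensities of different genes come from different probes and are not to be set against each other.

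The promoters of 4 enzyme genes are shown because the widest differences in each direction belonged to Eno3 and Pck1, because Mdh2 was the next lower, and because Ldha is a textbook target of hypoxia-inducible factor (HIF) and of Myc. Each run is the 250 bases before the annotated start, 5′ to 3′ on the gene's strand, from RefSeq on GRCm38.p6, and for Ldha before the first of 2 listed starts. Capitals mark matches on either strand to ACGTG, the core of HIF sites, which is also part of the E-box CACGTG, to TNACGTCA, a form of the cAMP response element, and to AGGTCA, a core bound by many nuclear receptors.
Eno3 (chr11:70656926-70657175, + strand): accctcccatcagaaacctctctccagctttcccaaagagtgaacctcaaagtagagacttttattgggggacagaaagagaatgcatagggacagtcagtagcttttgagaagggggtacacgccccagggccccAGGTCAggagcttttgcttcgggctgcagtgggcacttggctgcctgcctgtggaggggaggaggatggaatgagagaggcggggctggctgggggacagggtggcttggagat
Ldha (chr7:46845554-46845803, + strand): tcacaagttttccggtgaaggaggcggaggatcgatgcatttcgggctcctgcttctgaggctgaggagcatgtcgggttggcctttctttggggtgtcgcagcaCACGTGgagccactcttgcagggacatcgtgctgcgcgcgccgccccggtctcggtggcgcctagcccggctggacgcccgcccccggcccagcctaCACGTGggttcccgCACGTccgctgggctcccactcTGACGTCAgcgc
Pck1 (chr2:173152823-173153072, + strand): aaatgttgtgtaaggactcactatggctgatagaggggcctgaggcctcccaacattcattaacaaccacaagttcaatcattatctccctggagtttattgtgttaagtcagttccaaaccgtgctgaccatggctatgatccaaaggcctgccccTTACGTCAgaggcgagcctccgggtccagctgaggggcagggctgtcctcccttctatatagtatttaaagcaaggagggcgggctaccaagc
Mdh2 (chr5:135778399-135778648, + strand): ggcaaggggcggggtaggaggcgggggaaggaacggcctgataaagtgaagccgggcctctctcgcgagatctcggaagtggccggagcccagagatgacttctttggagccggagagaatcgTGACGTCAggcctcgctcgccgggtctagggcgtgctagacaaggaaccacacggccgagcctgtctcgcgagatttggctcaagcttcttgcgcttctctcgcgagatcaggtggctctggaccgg

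The Eno3 window held 1 AGGTCA match and neither of the other motifs. The Ldha window held 5 ACGTG matches, where a CACGTG counts once on each strand, and 1 TNACGTCA match. The Pck1 window held TTACGTCA, starting 93 bases before the start, and the Mdh2 window held TGACGTCA, starting 127 bases before it. Promoters of 34 of the 35 named genes were in the table. Over all their listed starts, ACGTG was found in 12 of the 34 (35.3%), against 18.5% of 27025 genes in the table. TNACGTCA was found in 5, Ldha, Mdh2, Ogdh, Pck1 and Pdhb (14.7%), against 2.92%, and AGGTCA in 6 (17.6%), against 15.8%. These matches are descriptions of letters, and the 27025 genes were not matched to the enzyme genes for base composition or expression. Genes with the TNACGTCA match lay on both sides, with Ldha and Ogdh higher in Elongin A-/- bodies and Mdh2 and Pck1 lower.

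The preparatory phase of glycolysis had no common direction. Its 7 measured genes comprised 3 higher and 4 lower in Elongin A-/- bodies, with a median of -0.22 that turned to 0.04 with the median of each chromosome removed and to 0.09 with the floor at the 75th percentile. Hk1, the hexokinase found in most tissues, read 4.49 in Elongin A-/- and 2.97 in Elongin A+/+ bodies. Hk2, the hexokinase induced by insulin and hypoxia, read 44.4 in Elongin A-/- and 51.8 in Elongin A+/+ bodies. The hexokinase genes thus differed in opposite directions by small amounts, 0.60 and -0.22 on the log2 scale, and Hk2 turned to 0.04 with the chromosome 6 median removed. Both measured phosphofructokinase genes, whose enzyme commits sugar to glycolysis, were lower by less than 2-fold. Pfkm, the muscle form, read 1.36 in Elongin A-/- and 2.46 in Elongin A+/+ bodies, near the floor. Pfkp, the platelet form, read 7.04 in Elongin A-/- and 10.8 in Elongin A+/+ bodies.

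Both aldolase genes, which split fructose bisphosphate, were higher in Elongin A-/- bodies. Aldoa, the widely expressed form, read 125.5 in Elongin A-/- and 94.9 in Elongin A+/+ bodies, a log2 difference of 0.40. Aldoc, the form of brain, read 10.9 in Elongin A-/- and 4.48 in Elongin A+/+ bodies, 2.43-fold apart and rank 368 from the top of the 9568 measured genes. The median over measured genes of chromosome 11, which carries Aldoc, was 0.41, and the Aldoc difference of 1.28 became 0.87 once that median was removed, which is under 2-fold. Of the glial markers listed for this report, Slc1a3 read 6.06 in Elongin A-/- and 2.36 in Elongin A+/+ bodies, and 3 of the 6 named on the array were under the floor in both. The summed intensity of these 6 was 11.1 in Elongin A-/- and 5.39 in Elongin A+/+ bodies, and their part in the Aldoc difference was not tested. Such sums, here and below, include readings under the floor and follow the brightest probes.

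Tpi1, which interconverts the triose phosphates, stood apart from the rest of the pathway. It read 1.63 in Elongin A-/- and 3.98 in Elongin A+/+ bodies, 2.44-fold lower, rank 311 from the bottom. Its probe was dim on both arrays although the enzyme is abundant in nearly all cells, and both readings lie near the floor, so the size is approximate. With the chromosome 6 median of -0.26 removed, the difference of -1.29 became -1.02.

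In the payoff phase all 5 measured genes were higher in Elongin A-/- bodies, against 48.4% of all measured genes, with a median of 0.56. That median is the bound of Eno2, which was measured only through the Elongin A-/- array, so its direction was fixed beforehand. With the floor at the 75th percentile the median was 0.52 over 4 genes. Gapdh, which makes NADH from triose phosphate, read 2818 in Elongin A-/- and 1836 in Elongin A+/+ bodies, 1.54-fold apart. Pgk1, the first ATP-forming step, read 133.6 in Elongin A-/- and 99.6 in Elongin A+/+ bodies. Pgam1, a mutase, read 334.8 in Elongin A-/- and 275.9 in Elongin A+/+ bodies. These 3 differences, 0.62, 0.42 and 0.28 on the log2 scale, are of the size of the disagreement between probes. That disagreement was pooled over dim and bright genes. Gapdh lies on chromosome 6, whose genes were mostly lower, and removing that median raised its difference to 0.88. Gapdh has many processed pseudogenes in the mouse, and no probe sequence was used here.

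Eno3 was the enzyme gene furthest higher. It encodes the enolase of striated muscle and read 64.8 in Elongin A-/- and 6.93 in Elongin A+/+ bodies, 9.34-fold apart, rank 27 from the top of 9568. As deposited, its values were 66.7 in Elongin A-/- and 6.58 in Elongin A+/+ bodies, a difference as wide as after normalisation. Eno2, the neuronal enolase, was barely above the floor in Elongin A-/- bodies (1.51) and under it in Elongin A+/+ bodies (0.62), a bound of at least 1.47-fold higher. Markers of muscle were mixed beside Eno3. Of the 12 listed, 1 was at least 2-fold higher, the cardiac regulator Nkx2-5 (8.01 in Elongin A-/- and 3.66 in Elongin A+/+ bodies), and 2, Acta1 and Actc1, were at least 2-fold lower. Only 5 of the 12 were measured, and over all measured genes these shares were 6.76% higher and 5.97% lower. Acta1 was 1.32 in Elongin A-/- and 6.27 in Elongin A+/+ bodies. Myl2 and Myh6 were lower by less, and the other 7 were under the floor on both arrays, among them Myog, Myod1, Des and Ckm. The summed intensity of the 12 was 17.4 in Elongin A-/- and 21.5 in Elongin A+/+ bodies, and their part in the Eno3 difference was not tested. Pgam2, the muscle mutase, read 1.59 in Elongin A-/- and 0.48, under the floor, in Elongin A+/+ bodies.

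Lactate dehydrogenase genes differed in opposite directions. Ldha, the form that favours lactate formation, read 770.9 in Elongin A-/- and 477.9 in Elongin A+/+ bodies, 1.61-fold higher. Ldhb, the form of heart, read 168.0 in Elongin A-/- and 227.7 in Elongin A+/+ bodies, 1.36-fold lower. Its log2 difference of -0.44 became -0.17 with the chromosome 6 median removed, inside the disagreement between probes. The gap between their log2 differences was 1.13, and 0.87 with the medians of chromosomes 7 and 6 removed. The disagreement between probes, pooled over dim and bright genes, would give a gap an SD of 0.60. Against it the gap of 1.13 is not large, but whether that SD holds for genes this bright was not tested.

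**Figure D2:**
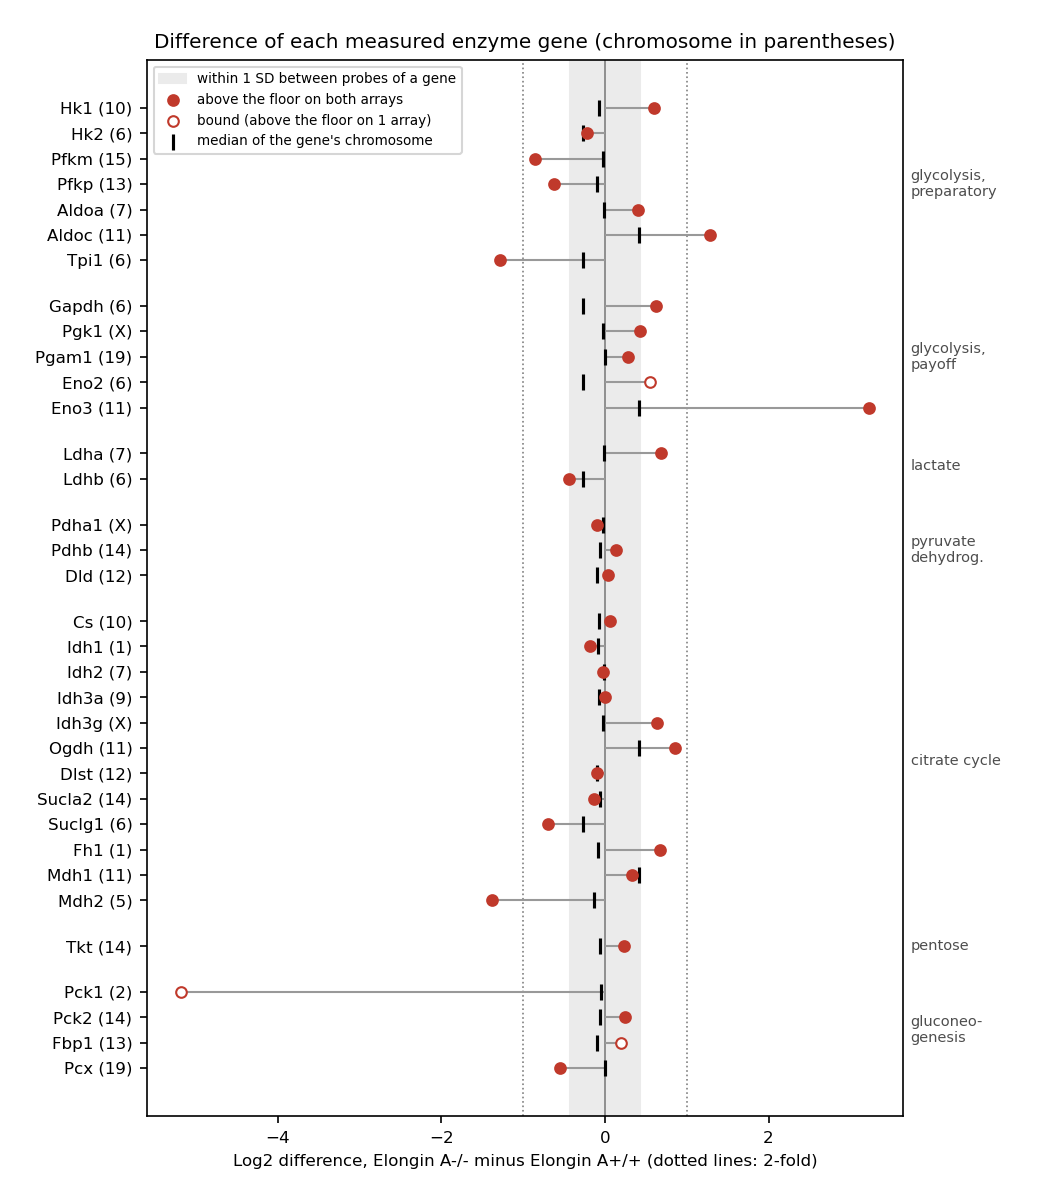
Log2 difference, Elongin A-/- minus Elongin A+/+, of the 34 measured enzyme genes, with bounds as open points, the median of each gene's chromosome as a tick, and the SD between probes of a gene (0.43) as the grey band. The payoff genes and Ldha lie right of 0, most genes of the pyruvate dehydrogenase complex and citrate cycle lie inside the band, and Eno3 (3.22) and Pck1 (-5.18) lie far outside it.

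The measured subunits of the pyruvate dehydrogenase complex differed little. Pdha1, a subunit of its first enzyme, read 11.1 in Elongin A-/- and 11.9 in Elongin A+/+ bodies. Pdhb, the partner subunit, read 59.6 in Elongin A-/- and 54.2 in Elongin A+/+ bodies. Dld, the dihydrolipoyl dehydrogenase shared with the oxoglutarate dehydrogenase complex, read 119.6 in Elongin A-/- and 116.2 in Elongin A+/+ bodies. All 3 log2 differences lay between -0.10 and 0.14, inside the disagreement between probes. Pdhx, which tethers Dld to the complex, was not in the list of members and read 4.27 in Elongin A-/- and 2.09 in Elongin A+/+ bodies, 2.04-fold higher.

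Of the 12 measured citrate cycle genes and isoenzymes, 11 lay within 2-fold, 5 were higher and 7 lower, and the median was -0.01, a sign that turned under several settings (0.09 with the values as deposited). Cs, citrate synthase, read 329.9 in Elongin A-/- and 315.6 in Elongin A+/+ bodies. Idh3a, the catalytic subunit of the NAD-dependent isocitrate dehydrogenase, read 62.3 in Elongin A-/- and 62.5 in Elongin A+/+ bodies. These entry steps were practically level. Idh3g, a regulatory subunit of the same enzyme, read 116.7 in Elongin A-/- and 74.8 in Elongin A+/+ bodies, 1.56-fold higher. The NADP-dependent isoenzymes Idh1 and Idh2 differed by -0.18 and -0.02.

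The later steps were more uneven. Ogdh, the first enzyme of the oxoglutarate dehydrogenase complex, read 53.8 in Elongin A-/- and 29.8 in Elongin A+/+ bodies, a log2 difference of 0.85 that became 0.44 without the chromosome 11 median. Dlst, the core of that complex, read 8.34 in Elongin A-/- and 8.89 in Elongin A+/+ bodies. Suclg1, the shared alpha subunit of succinyl-CoA ligase, read 15.5 in Elongin A-/- and 25.1 in Elongin A+/+ bodies, 1.62-fold lower. Its ATP-forming partner Sucla2 was closer, at 55.0 in Elongin A-/- and 60.5 in Elongin A+/+ bodies. Fh1, fumarase, read 60.4 in Elongin A-/- and 37.8 in Elongin A+/+ bodies, 1.60-fold higher.

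Mdh2, the mitochondrial malate dehydrogenase that closes the cycle, was the 1 citrate cycle gene of 12 measured that was at least 2-fold apart. It read 90.8 in Elongin A-/- and 236.9 in Elongin A+/+ bodies, 2.61-fold lower, rank 265 from the bottom. Mdh1, the cytosolic enzyme of the malate-aspartate shuttle, read 6.60 in Elongin A-/- and 5.24 in Elongin A+/+ bodies. The gap between their log2 differences was 1.72, and 1.18 with the medians of chromosomes 11 and 5 removed. Both readings of Mdh2 were far above the floor. Among 1305 genes with a mean intensity above 50, 97.9% lay within 2-fold.

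Tkt, the transketolase that returns pentoses to glycolysis, read 396.8 in Elongin A-/- and 336.5 in Elongin A+/+ bodies, a log2 difference of 0.24.

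Pck1 was the enzyme gene furthest lower. It encodes the cytosolic phosphoenolpyruvate carboxykinase, which commits oxaloacetate to glucose synthesis in liver and kidney. Its intensity was 0.29, under the floor, in Elongin A-/- bodies and 37.2 in Elongin A+/+ bodies, at least 36.2-fold lower and rank 3 from the bottom of 9568. Pck2, the mitochondrial isoenzyme, read 13.9 in Elongin A-/- and 11.8 in Elongin A+/+ bodies. Its log2 difference of 0.24 lay inside the disagreement between probes. Pcx, which makes oxaloacetate from pyruvate, read 2.30 in Elongin A-/- and 3.35 in Elongin A+/+ bodies. The fructose bisphosphatases were at or under the floor, Fbp1 at 1.18 in Elongin A-/- and 0.77 in Elongin A+/+ bodies and Fbp2 at 0.79 in Elongin A-/- and 0.56 in Elongin A+/+ bodies.

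Markers of visceral endoderm and liver, tissues that use Pck1, were mixed. Of 13 listed, 11 were named on the array and 5 of these, including Alb, Fgb, Fgg and Apoa1, were under the floor in both genotypes. Only 2, Foxa2 and Rbp4, were above the floor on both arrays, and both were lower in Elongin A-/- bodies (-0.77 and -0.69). Afp was at least 3.89-fold lower, while Fga was at least 6.53-fold and Ttr at least 3.34-fold higher. Afp, Fga, Ttr and Apoa2 each counted as measured through 1 array only, which fixed their direction. The summed intensity of the 11 was 20.1 in Elongin A-/- and 16.7 in Elongin A+/+ bodies. Their part in the Pck1 difference was not tested, and in bulk RNA fewer cells of a type and less RNA per cell cannot be told apart. Blood and endothelial markers differed most, with 8 of 10 measured at least 2-fold higher, against 6.76% of all measured genes. Only 2 of the 10, Cldn5 and Kdr, were above the floor on both arrays. Most of the others counted as measured only through the Elongin A-/- array, which fixed their direction. Klf1 was lower (-0.57), and 4 more, among them Cdh5 and Gata1, were under the floor in both. The summed intensity over 14 genes was 160.5 in Elongin A-/- and 11.9 in Elongin A+/+ bodies. Cldn5 (60.2) and Kdr (54.4) weighed most in the Elongin A-/- sum. Of the 9 measured neural markers, 4 were higher and 5 lower, with a median of -0.09. The 4 at least 2-fold lower, against 5.97% of all measured genes, were Fabp7, Stmn2, Neurog2 and Sox1. Sox1 counted as measured only through the Elongin A+/+ array, which fixed its direction. Dcx and Olig2, both higher, were measured only through the Elongin A-/- array. Pax6 was 12.9 in Elongin A-/- and 9.32 in Elongin A+/+ bodies. Map2 was under the floor in both. Of the 7 measured pluripotency markers 6 were lower, with a median of -0.40. Zfp42 was at least 2-fold lower and Dppa4 at least 2-fold higher, against 5.97% and 6.76% of all measured genes. Sox2 was 39.5 in Elongin A-/- and 72.2 in Elongin A+/+ bodies, and Pou5f1 was 0.93, under the floor, in Elongin A-/- and 1.70 in Elongin A+/+ bodies. Their part in any enzyme gene's difference was not tested.

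**Figure D3:**
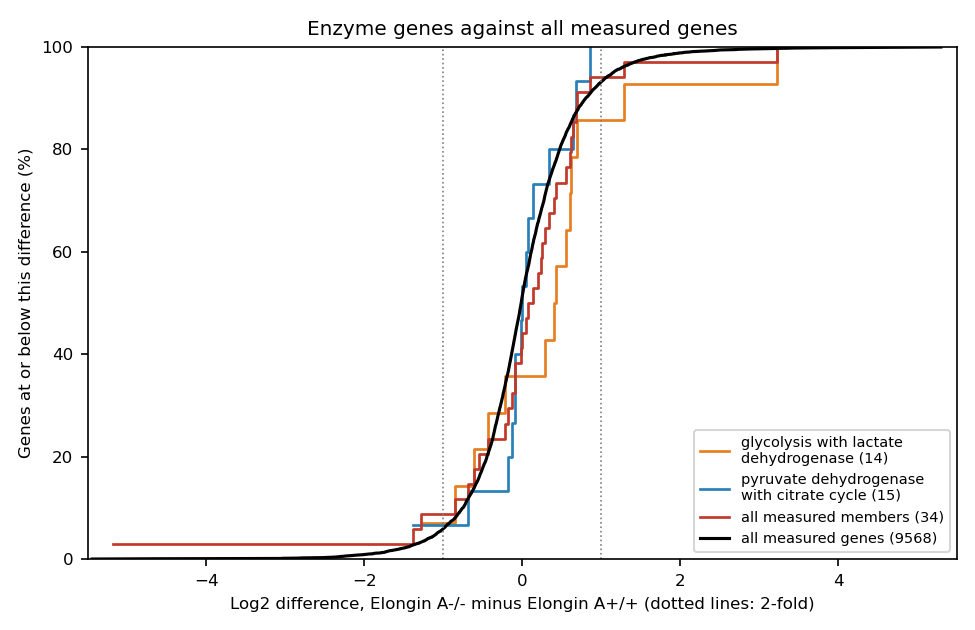
Cumulative share of genes (percent) at or below each log2 difference, Elongin A-/- minus Elongin A+/+, for glycolysis with lactate dehydrogenase (14 genes), pyruvate dehydrogenase with the citrate cycle (15), all 34 measured members and all 9568 measured genes. The glycolytic curve crosses its middle at 0.41, and the other curves cross theirs at 0.00, 0.10 and -0.02.

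Counted with lactate dehydrogenase, 9 of 14 measured glycolytic genes were higher in Elongin A-/- bodies, against 48.4% of all measured genes, and the median was 0.41. The 9 include Eno2, measured only through the Elongin A-/- array. The 15 genes of the pyruvate dehydrogenase complex and citrate cycle had a median of 0.00, with 7 higher and 8 lower. The difference between these groups was not tested. Among the 14 members with a mean intensity above 50, 10 were higher, with a median of 0.19. Of the 1305 genes of that brightness 47.2% were higher, with a median of -0.02.

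Members on chromosomes 11 and 6 mostly lay on the side of their chromosome's other genes. All 4 members on chromosome 11, Aldoc, Eno3, Ogdh and Mdh1, were higher in Elongin A-/- bodies, on a chromosome where 76.8% of 803 measured genes were higher, though Mdh1 turned to -0.08 with that median removed. Of the 6 members on chromosome 6, 4 were lower, on a chromosome where 32.0% of 518 genes were higher. Gapdh and Eno2 were the exceptions there. No measured member lies on chromosome 8, the other chromosome whose median was far from 0 (0.43). The 24 members on the remaining chromosomes comprised 13 higher and 11 lower, with a median of 0.05. Genotype and chromosome-wide differences cannot be told apart on these arrays.

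The genes that flank the 5 widest members were read, 5 measured genes on each side by the RefSeq order of GRCm38.p6. The 5 members were picked for being at least 2-fold apart, so most unselected neighbours would differ less in any case. Around Eno3, 9 of 10 neighbours were higher, with a median of 0.63 and a highest value of 1.05, well under the 3.22 of Eno3. Among them Pld2 and Inca1 (1.05) were measured only through the Elongin A-/- array, which fixed their direction. Around Aldoc, 8 of 10 were higher, with a median of 0.48. Around Tpi1, whose neighbours include Eno2, 5 were higher and 5 lower. Ptpn6, Atn1, Eno2 and Gpr162 were measured only through the Elongin A-/- array and Cd4 only through the other, which fixed their direction. Of the rest, Grcc10, Spsb2, Usp5 and P3h3 were lower (-0.45, -0.23, -0.33 and -0.31) and Cdca3 was at 0.08. Around Mdh2 the neighbours had a median of -0.02 and ranged between -0.45 and 0.44. Around Pck1, 9 of 10 were lower, but by a median of only -0.10, and the lowest, Vapb, was at -0.54. None of the neighbours of Aldoc, Tpi1, Mdh2 and Pck1 was 2-fold apart.

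**Figure D4:**
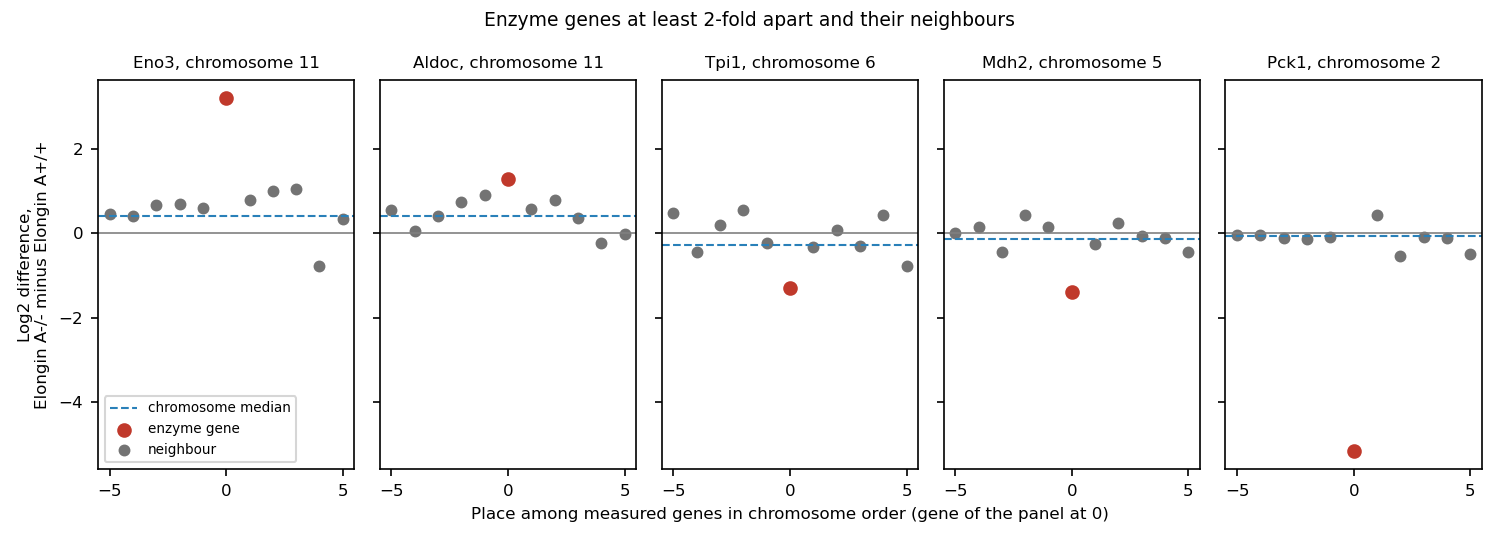
Log2 difference, Elongin A-/- minus Elongin A+/+, of the 5 enzyme genes at least 2-fold apart (red) and of the 5 measured genes on each side (grey), by place in chromosome order, with the chromosome median as a dashed line. Each enzyme gene lies outside the range of its neighbours, which is likely for genes picked for being at least 2-fold apart. The neighbours of Eno3 and Aldoc lie mostly above 0.

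Genes that feed and regulate these enzymes were read from further lists, whose counts stand beside 6.76% of all measured genes at least 2-fold higher and 5.97% at least 2-fold lower. With so few genes a list, 1 gene is already more than either share of it. Among carriers, 1 of 9 measured genes was at least 2-fold apart. Slc16a3, the lactate exporter of glycolytic cells, read 32.2 in Elongin A-/- and 12.6 in Elongin A+/+ bodies, 2.55-fold higher, and 0.94 on the log2 scale without the chromosome 11 median. Slc2a1, the main glucose transporter, read 26.4 in Elongin A-/- and 31.4 in Elongin A+/+ bodies. Slc2a3, the neuronal one, was at least 1.93-fold higher. Slc16a1, the lactate carrier of most tissues, was under the floor in both.

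Among the enzymes that set the flux, 1 of 6 measured genes was at least 2-fold apart. Pfkfb4, which makes the activator of phosphofructokinase, read 1.13 in Elongin A-/- and 2.71 in Elongin A+/+ bodies, 2.40-fold lower but near the floor. Tigar, which degrades that activator, read 5.29 in Elongin A-/- and 10.4 in Elongin A+/+ bodies, 1.96-fold lower. Pdk1, the kinase that switches off pyruvate dehydrogenase, read 84.1 in Elongin A-/- and 56.2 in Elongin A+/+ bodies, a log2 difference of 0.58.

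The remaining pentose phosphate genes included 2 of 7 that were higher by 2-fold or more and 0 lower by as much, with a median of 0.37. H6pd, the glucose dehydrogenase of the endoplasmic reticulum, read 8.72 in Elongin A-/- and 2.61 in Elongin A+/+ bodies, but its second probe was under the floor on both arrays. Rbks, ribokinase, read 3.65 in Elongin A-/- and 1.44 in Elongin A+/+ bodies. Further isoenzymes of the same steps had 1 of 12 at least 2-fold apart, Pdhx, and a median of 0.15. Shuttle, malic enzyme and glutamine entry genes had 1 of 11, the cytosolic malic enzyme Me1, at least 2.70-fold lower, and a median of 0.01. None of 10 glycogen and hexose genes and neither measured lipoylation or thiamine gene was 2-fold apart.

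Of 11 measured genes of the HIF pathway and its targets outside the enzymes, 9 were higher, against 48.4% of all measured genes, with a median of 0.56. At least 2-fold higher were 3, against 6.76% of all measured genes. Egln1, a HIF hydroxylase on chromosome 8, and P4ha2, a collagen hydroxylase on chromosome 11, differed by 0.79 and 0.86, and by 0.36 and 0.44 with their chromosome medians removed. Adm, the vasodilator adrenomedullin, read 7.44 in Elongin A-/- and 1.88 in Elongin A+/+ bodies. Ddit4, an inhibitor of mTOR signalling, read 31.2 in Elongin A-/- and 11.1 in Elongin A+/+ bodies, and Car12, a carbonic anhydrase, was at least 3.56-fold higher. Car12 counted as measured only through the Elongin A-/- array. Egln3 and Egln2, also HIF hydroxylases, were slightly lower (-0.21 and -0.25). Of the 15 genes of this list named on the array, 4 were under the floor in both, Car9, Ndrg1 and the HIF subunits Epas1 and Arnt. Hif1a had no named probe. Of 10 measured regulators of the enzyme genes, Esrra, a nuclear receptor of mitochondrial genes, was 2.20-fold higher and Prkaa2, a catalytic subunit of AMP-activated kinase, 3.32-fold lower. Myc read 22.7 in Elongin A-/- and 17.0 in Elongin A+/+ bodies.

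**Figure D5:**
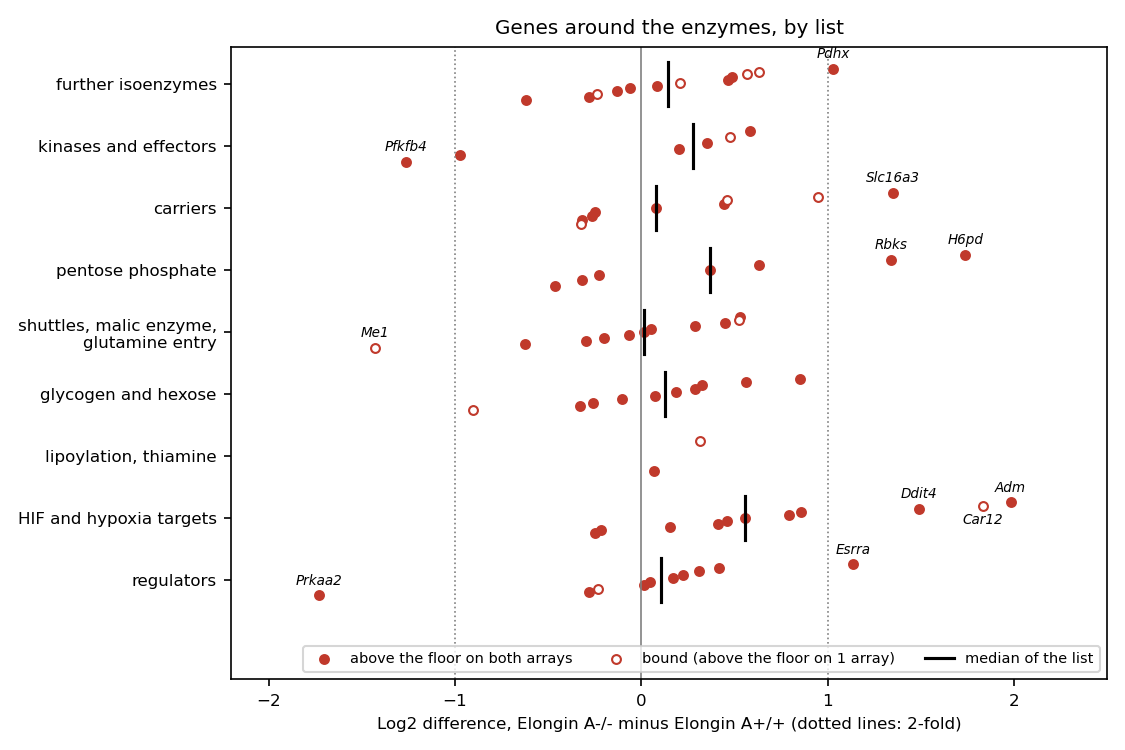
Log2 difference, Elongin A-/- minus Elongin A+/+, of measured genes around the enzymes, 1 row per list, with bounds as open points and the median of each list of more than 2 genes as a bar. Most points lie within 2-fold (dotted lines), and the HIF row has the highest median (0.56).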

How the data were processed

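RNA of each genotype was hybridised to 1 Applied Biosystems mouse array. Per the labels' protocols, 1 µg of RNA was labelled with digoxigenin for chemiluminescent detection. The deposited intensity values are linear, with medians near 1. Normalisation, background correction and filters by the authors are not given in the sources here. Arrays were grouped by title.

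Probes were named from the platform annotation where it gives 1 symbol. A gene with several probes took the one with the highest mean log2 value. Because the 10th and 75th percentiles of the arrays differed by -0.16 and 0.15 (log2), quantile normalisation was applied, which hides a shift of most genes in 1 direction. Values under the floor, the median, were set to it.

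Genes were counted at 2-fold. The members, lists and motifs were chosen with earlier results of these data known. All members could be named, and of other lists, genes 2-fold apart and up to 4 more with the largest differences. Slc2a1, Egln2, Egln3, genes named as under the floor and flanking genes fall outside that rule and were chosen after their values were seen. Python 3.11.15, numpy 2.4.6, pandas 2.3.3 and statsmodels 0.14.6 were used, and the steps were tested on simulated data. Other scalings, floors, probe rules, chromosome corrections and folds were tried.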

Additional observations from a re-analysis of the deposited data

How the results depend on the processing

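With 1 array per genotype there is no replicate to leave out. No paired analysis was possible because each genotype has 1 array. Under 11 other settings of scaling, floor, probes and chromosome, 29 of the 34 measured members kept their direction wherever they had a value, and the other 5 (Hk2, Idh2, Idh3a, Dlst and Mdh1) were at most 0.33 apart. Several settings could not move most members. Each had 1 probe, so the probe rules changed no value, and lower floors changed only genes under the main floor. Leaving out chromosomes removes a gene or keeps its value. Eno3 stayed between 2.81 and 3.34, Mdh2 between -1.41 and -1.25, and Pck1 between -6.99 and -2.84, the last with the floor at the 75th percentile. Aldoc was under 2-fold with the chromosome median removed (0.87), and Tpi1 with the pseudocount (-0.91). The median of the members lay between 0.05 and 0.18.

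The count of members higher was 2. It was 1 with chromosome medians removed, 0 without chromosomes 6, 8 and 11, where Eno3 and Aldoc are left out, 3 with the floor at the 25th percentile or with no floor, 8 at 1.5-fold and 1 at 3-fold. The count lower was 3. It was 2 without chromosomes 6, 8 and 11, with the pseudocount and with the higher floor (75th percentile), 6 at 1.5-fold and 1 at 3-fold. Over all genes the values as deposited gave 799 higher and 449 lower, against 647 and 571. The gluconeogenesis list had a median of -0.17, and 0.24 with no floor. It had under 3 genes with the floor at the 75th percentile, as had the payoff list without chromosomes 6, 8 and 11, so no median was taken. Signal near the floor limits Pfkm, Tpi1, Eno2, Fbp1 and Pfkfb4 among others. With the floor at the 75th percentile Adm fell to 0.52, H6pd to 0.75 and Acta1 to -0.27, while Ddit4 stayed at 1.49.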
